A study of Mus musculus with 4 samples.

Results

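The genes described are the nuclear-encoded subunits of the mitochondrial respiratory chain and ATP synthase, with 8 of their assembly factors, measured in sorted mouse mammary macrophages. Members were found by gene symbol: every probe set (the array's group of short oligonucleotides for 1 transcript) that named exactly 1 gene whose symbol began with Nduf, Sdha to Sdhd, Uqcr, Cox4 to Cox8 or Atp5. The rule found 160 of 22690 probe sets, for 87 of 12393 genes. Complex I had 39 genes, complex II had 7, complex III had 8, complex IV had 16 and complex V, the ATP synthase, had 17. Each gene was read from its brightest probe set, by the mean of the 4 arrays, and 46 members had more than 1 probe set. The subunits encoded in mitochondrial DNA lie outside the rule and were not analysed here.

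The 4 groups were YFP-positive macrophages of remodeling mammary gland with wild-type Ets2, of remodeling gland with both copies of Ets2 deleted, of early PyMT-induced mammary tumors with 1 copy of Ets2, and of early tumors with both copies deleted. The tumor control is titled wild type, while its source label names 1 copy. YFP was expressed in macrophages in every group. The promoter behind YFP, the means of deletion, mouse strain, age and number of animals are not given in the sources used here. Each group is 1 RNA sample on 1 array, so no spread between animals can be given, no test was made, and every difference is between arrays. Ets2 itself, on its probe set, read 13.24 and 12.97 on the remodeling arrays labelled Ets2-expressing and Ets2-deficient, and 12.77 and 12.67 on the tumor arrays. It was therefore not clearly lower on the arrays labelled Ets2-deficient; whether the probe set lies in the deleted part is not given, so the directions below follow the labels alone.

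Complexes I to IV sit in the inner mitochondrial membrane and pass electrons from NADH and succinate to oxygen, and complexes I, III and IV pump protons as they do so. ATP synthase lets the protons flow back and makes ATP. In macrophages the balance between this pathway and glycolysis is known to shift with activation, and complexes I and II are also known as sources of signals through reactive oxygen species and succinate.

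The members were bright genes: 82, 80, 82 and 80 of the 87 lay at or above the median of all probe sets. Sets of 4 values here and below give the remodeling arrays first, Ets2-expressing then Ets2-deficient, and then the tumor arrays likewise. The array medians were 6.17, 5.98, 6.22 and 6.30 on the log2 scale, and the members' median levels were 10.66, 10.82, 10.76 and 11.08. All 9 macrophage markers lay above the array median on all 4 arrays. The median of 11 mammary epithelial markers read 4.71, 4.75, 7.67 and 8.91, with 2, 1, 10 and 10 of the 11 at or above the array median. The 3-prime minus 5-prime difference of Actb, a control for RNA length, read 2.72, 2.96, 3.30 and 3.54. The same difference for Gapdh was 2.45 and 2.27 on the tumor arrays and lower on the remodeling arrays. The epithelial and Actb values were highest on the tumor Ets2-deficient array, and their part in the results below was not tested. In bulk RNA, a different share of cells and a different amount of RNA per cell cannot be told apart.

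The tumor Ets2-deficient array held the highest value of most members. It was the highest of the 4 arrays for 64 of 87 members, or 73.6%, against 31.0% of the 6197 genes whose mean lay at or above the median of gene means, called bright genes below, and 28.7% of the 3099 genes in the upper quartile. By complex this was 15 of 17 genes in complex V, 7 of 8 in complex III, 29 of 39 in complex I, 9 of 16 in complex IV and 4 of 7 in complex II. The lowest value fell on the remodeling Ets2-expressing array for 51 members, or 58.6%, against 33.4% of bright genes, among which that array was also the most often lowest. The differences behind these counts were mostly under 2-fold. After each array was centred on its median, the count for the tumor Ets2-deficient array was 37. The share of bright genes after that centring was not taken, so 37 cannot be set against the 31.0%. The comparisons below therefore set the members' median beside that of the bright genes, a contrast that centring cannot move. The bright genes are dimmer than the members, with median levels of 9.19, 9.21, 9.22 and 9.27. The upper quartile, which holds 67 of the 87 members and has medians of 10.53, 10.54, 10.50 and 10.53, is the closer reference, and its values are given where they differ.

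**Figure D1:**
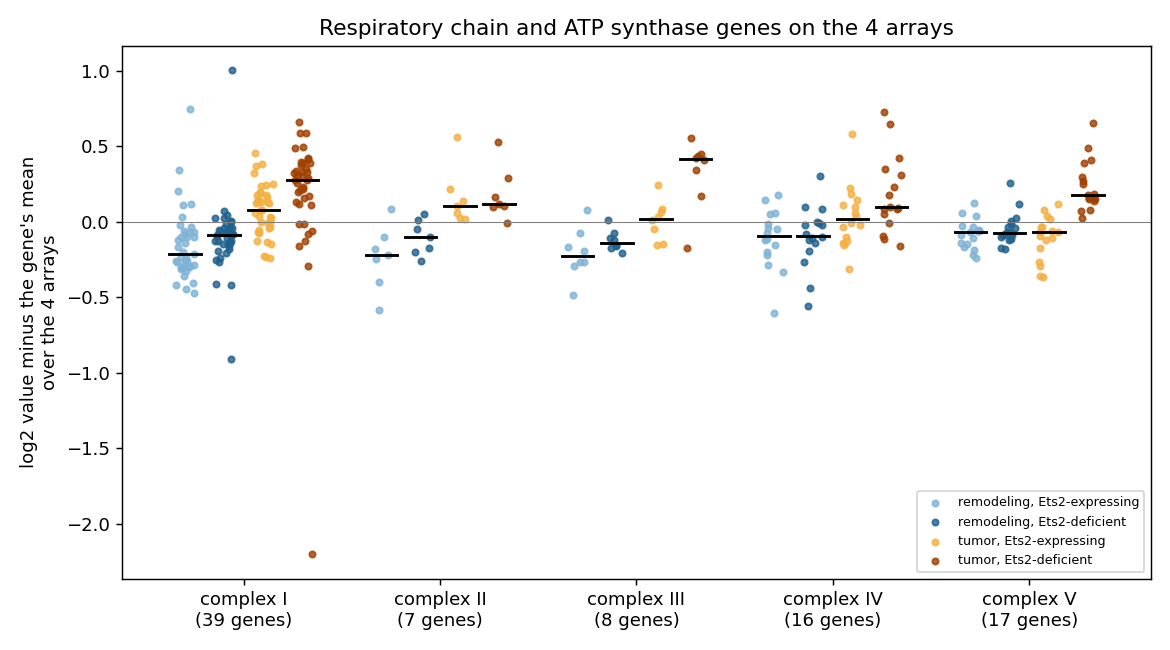
Log2 value of each member on each of the 4 arrays (1 array per group) minus that gene's mean over the 4 arrays, by complex. Each point is 1 gene and horizontal lines are medians over the genes of a complex. The members' median was 10.66, 10.82, 10.76 and 11.08 from left to right, and Ndufs5 of complex I lies at 5.91 on the tumor Ets2-deficient array against 8.57 to 9.12 on the other 3.

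Between the tumor arrays, labelled Ets2-deficient minus Ets2-expressing, the members' median difference was 0.22 log2, against 0.03 in bright genes and 0.02 in the upper quartile. Of the 87 members, 66 lay above 0, 64 above the median of bright genes and 65 above that of the upper quartile. Complex III (median 0.37), complex V (0.29) and complex I (0.19) were higher, while complex IV (0.08) and complex II (0.03) were near the other genes. The medians of complexes II and IV turned to -0.05 and -0.0035 after median centring, and complex II to -0.04 after quantile normalization. Past 2-fold, with the brighter array at or above its median, 0 members were higher and 1, Ndufs5, was lower; 2.99% of all genes with the brighter array at or above its median passed, 2.23% higher and 0.761% lower. Cox8b, the muscle form of a complex IV subunit, differed by 1.04 but was below the median on every array. How far probe sets of 1 gene agree can be judged from members with several bright probe sets. Such probe sets read the same RNA on the same arrays, so error between samples is left out. The differences of these members had a median standard deviation of 0.116 within a gene. In 34 of 41 such genes all probe sets were on the same side of 0. Over all genes with several bright probe sets these were 0.201 and 1200 of 2185, without matching for brightness.

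**Figure D2:**
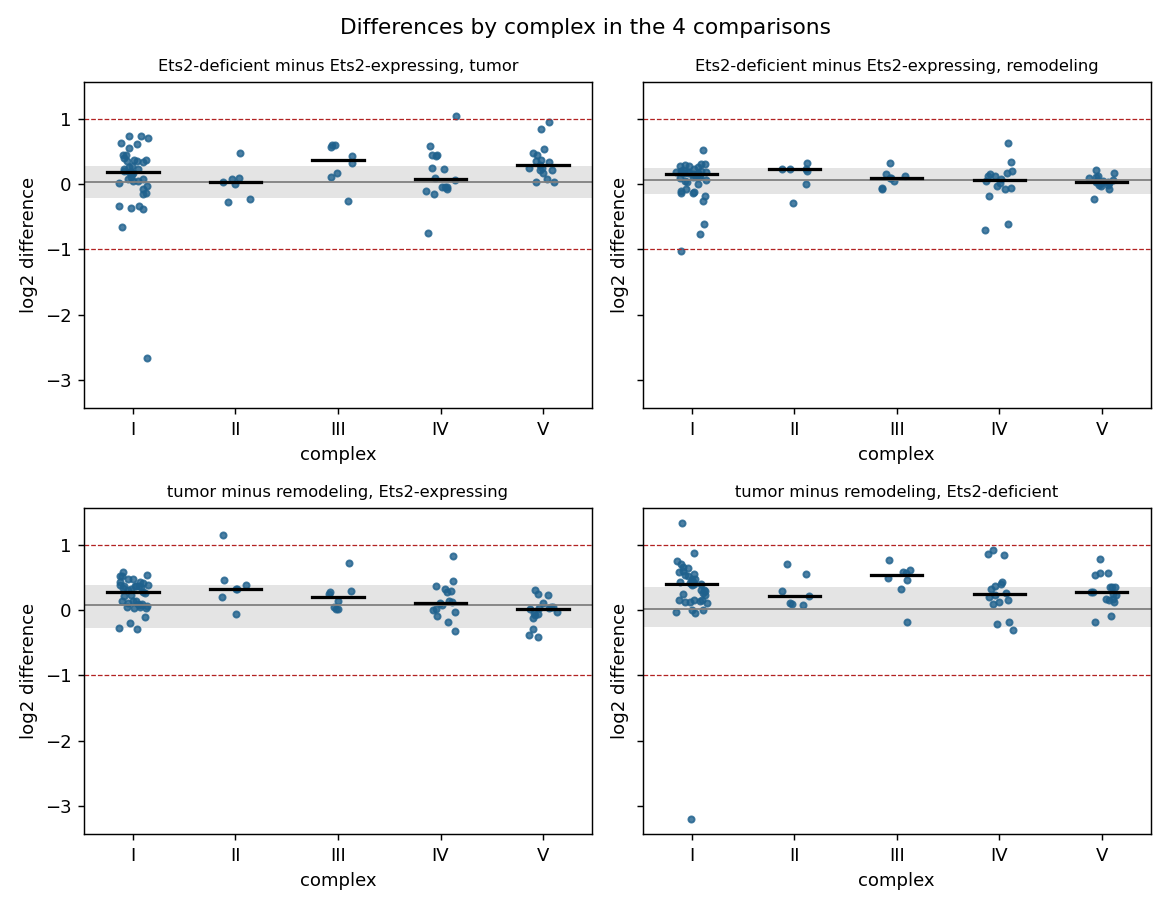
Log2 difference of each member in the 4 comparisons, by complex; each point is 1 gene and horizontal lines are medians. In the tumor Ets2 comparison the medians were 0.19, 0.03, 0.37, 0.08 and 0.29 for complexes I to V, and Ndufs5 stands apart at -2.66.

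In ATP synthase, all 17 genes lay above the median of bright genes in the tumor Ets2 comparison, and 6 of 17 did in the remodeling Ets2 comparison, which uses the other pair of arrays. The tumor difference was the larger in 16 of 17 genes, with a median gap of 0.30 log2, against 47.7% of bright genes. Atp5h, a subunit of the peripheral stalk, was the exception, at 0.03 and 0.11. The tumor Ets2-expressing array held the lowest value of 7 of the 17 genes, or 41.2%, against 22.6% of bright genes. The remodeling Ets2-expressing array held the lowest value of 8.

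The largest difference was in Atp5g1, which with Atp5g2 and Atp5g3 encodes the same mature subunit of the proton-carrying c ring. Atp5g1 read 10.01, 10.13, 9.96 and 10.90, a difference of 0.95 in tumor and 0.12 in remodeling macrophages. The first 3 arrays lay close together and the tumor Ets2-deficient array above them. Atp5g2 read 10.97, 11.19, 10.57 and 11.01, so its difference of 0.44 came with a tumor Ets2-expressing value below all the others. Atp5g3 read 11.69, 11.72, 11.72 and 11.89, with a difference of 0.17.

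Among the other membrane subunits, Atp5md, a small subunit also known as DAPIT, read 10.30, 10.30, 10.00 and 10.85, a difference of 0.85 in tumor and -0.01 in remodeling. Atp5k, the e subunit that helps join ATP synthase into dimers, read 11.32, 11.48, 11.28 and 11.76. Its 3 probe sets gave tumor differences of 0.67, 0.65 and 0.47, all in the same direction. In the F1 head, where ATP is made, the median difference was 0.25 in tumor and 0.03 in remodeling. The catalytic subunit Atp5b read 11.12, 10.88, 10.99 and 11.24, and the alpha subunit Atp5a1 differed by 0.04 in tumor.

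**Figure D3:**
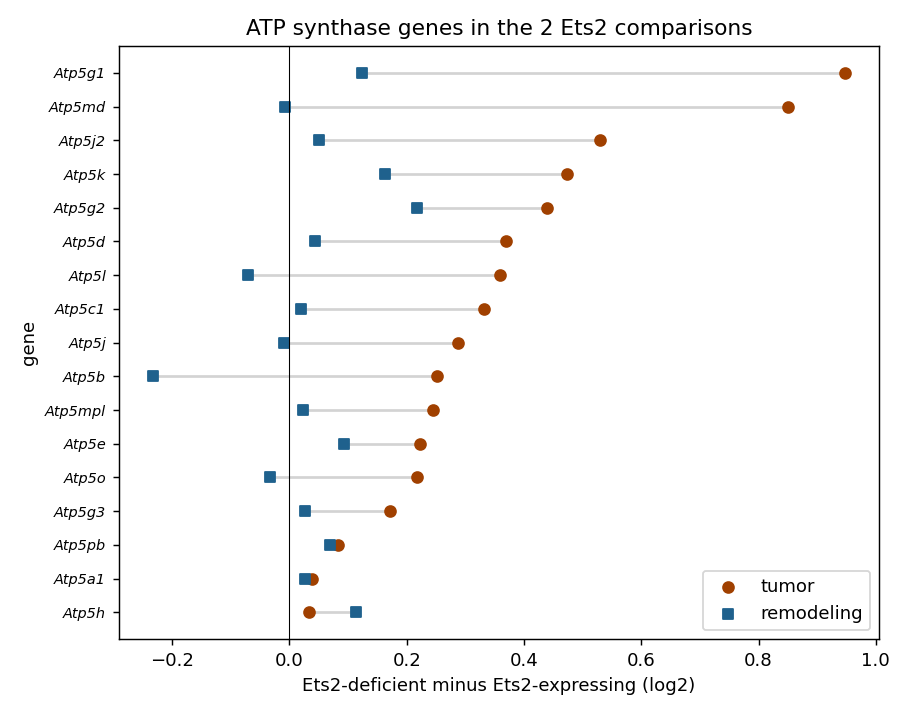
Log2 difference between the arrays labelled Ets2-deficient and Ets2-expressing for the 17 ATP synthase genes, in tumor (circles) and remodeling (squares) macrophages, 1 array per group, so no error bar can be drawn. The tumor circle lies to the right of the square in 16 of 17 genes, from 0.95 for Atp5g1 down, and Atp5h is the exception.

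Complex III takes electrons from ubiquinol to cytochrome c. In the tumor Ets2 comparison, 7 of its 8 genes lay above the median of bright genes. Uqcr10, a small subunit, read 10.75, 10.80, 10.77 and 11.37, a difference of 0.60. Uqcr11, the smallest subunit, read 9.63, 9.72, 9.87 and 10.47, also a difference of 0.60. In both genes the tumor Ets2-deficient array lay above the other 3. Uqcrb was lowest, at 12.05, 11.99, 12.06 and 11.80, or -0.26, but its other bright probe set gave 0.32, so its direction is not settled. Cyc1, the cytochrome c1 of the same complex, which the symbol rule leaves out, read 9.63, 9.72, 10.05 and 10.64, a difference of 0.59.

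Complex I takes electrons from NADH. In the tumor Ets2 comparison, 28 of its 39 genes lay above the median of bright genes, with like medians in the arm that oxidizes NADH (0.23), the module that reduces ubiquinone (0.27), and the proximal (0.26) and distal (0.20) membrane arms. Ndufs8, which holds iron-sulfur clusters in the ubiquinone module, read 10.62, 10.82, 10.99 and 11.69, a difference of 0.70. Its 6 probe sets gave 0.48 to 0.80, all above 0. Ndufa10, a subunit of the membrane arm, read 8.90, 9.41, 9.22 and 9.96, or 0.74, the highest of the bright members of complex I; its other probe set was below the median on every array. Ndufb3, in the distal arm, read 9.28, 9.59, 9.33 and 10.06, a difference of 0.73. The 5 assembly factors, which build the complex and are not part of it, had a median of -0.08. Among them Ndufaf4 gave -0.38 and 0.48 with its 2 bright probe sets, the widest disagreement of any member. Ndufb4, a subunit of the distal arm, was read only by 2 bright probe sets that also name its near copies, with differences of 0.60 and 0.57, so it is not counted among the members.

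Complex II passes electrons from succinate. Its iron-sulfur subunit Sdhb read 10.66, 10.89, 11.12 and 11.59, a tumor difference of 0.47, while the catalytic flavoprotein Sdha read 11.12, 11.35, 11.32 and 11.42, a difference of 0.10. The membrane anchors Sdhc and Sdhd differed by 0.07 and -0.23. The other bright probe set of Sdhc gave -0.35, so the direction of Sdhc is not settled. The subunits of complex II thus did not move together on these arrays.

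Complex IV, cytochrome c oxidase, hands electrons to oxygen. In the tumor Ets2 comparison its broadly expressed subunits had a median of 0.09. Cox5b read 12.80, 12.95, 12.81 and 13.26, a difference of 0.45, and Cox6b1 read 12.24, 12.44, 12.36 and 12.80, also 0.45. Cox4i1 at 11.78, 11.80, 12.04 and 11.99 differed by -0.05, and Cox7a2l, a factor that joins complexes III and IV, by -0.10, the lowest of the bright genes. Ndufa4, named as a complex I gene but known as a complex IV subunit, read 10.26, 10.37, 10.06 and 10.51, a difference of 0.45.

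Several complex IV subunits have forms restricted to heart and skeletal muscle, lung or testis. Cox4i2, Cox8b and Cox8c read between 4.08 and 5.43, below the array median on every array. Cox7a1, a muscle form, read 6.06, 5.45, 5.74 and 6.31, near the median, and its Ets2 differences were 0.58 in tumor and -0.61 in remodeling. Cox6a2, a muscle form, read 7.46, 8.10, 7.84 and 7.79, and Cox6b2, the testis form, read 7.85, 8.19, 8.68 and 9.10. A list of 10 skeletal and heart muscle markers had medians of 4.24, 4.40, 4.25 and 4.29, with 2 of 10 at or above the array median on each array. Cox7c, a broadly expressed subunit, read only 6.19, 5.49, 6.63 and 5.89; levels of different probe sets cannot be ranked, and its differences of -0.74 and -0.70 rest on a probe set near the median.

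Between the remodeling arrays, labelled Ets2-deficient minus Ets2-expressing, the members' median was 0.10, against 0.06 in bright genes, and 50 of 87 lay above the latter. The complexes had medians of 0.16, 0.23, 0.09, 0.06 and 0.03 from I to V. In complex II the 3 assembly factors Sdhaf1, Sdhaf2 and Sdhaf4 were at 0.33, 0.20 and 0.23. Its subunits Sdha, Sdhb, Sdhc and Sdhd were at 0.23, 0.23, -0.29 and 0. The medians depend on the scaling. After median centring the members' median was 0.29 and the complexes were at 0.35, 0.42, 0.29, 0.25 and 0.22. Bright genes were then at 0.25, which leaves the gap between members and bright genes as it was. Other cell types differed more between these arrays, and their part was not tested: all 7 fibroblast markers were lower (median -2.14), as were all 5 mast cell markers (median -2.65) and all 4 neutrophil markers (median -0.64). All 5 cycling markers were higher (median 1.10). 1 member passed 2-fold, Ndufaf7, and it was lower; 6.48% of all genes within the brightness limit passed, 1.31% higher and 5.17% lower. The widest differences of bright members were 0.52 in Ndufa10 and -0.61 in the assembly factor Ndufaf5 of complex I, 0.33 in Sdhaf1 and -0.29 in Sdhc of complex II, and 0.63 in Cox6a2 and -0.18 in Cox8a of complex IV. In complex III they were 0.32 in Uqcrc1, a core protein, and -0.08 in the Rieske protein Uqcrfs1, and in ATP synthase 0.22 in Atp5g2 and -0.23 in Atp5b. Here only 23 of 41 members with several bright probe sets had all of them on the same side of 0, against 1349 of 2239 genes. The tumor difference exceeded the remodeling difference in 58 of 87 members, or 66.7%.

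Tumor macrophages were set against remodeling macrophages within each Ets2 label. Among the arrays labelled Ets2-expressing, the members' median was 0.14 against 0.07 in bright genes, with 53 of 87 members above the latter. Against the upper quartile, at 0.02, the gap was 0.12 and 65 of 87 members lay above. Complexes I (0.27) and II (0.33) had the highest medians, and complexes III and IV lay between these and ATP synthase. Complex II includes 3 assembly factors, Sdhaf1 at 1.15, Sdhaf2 at 0.39 and Sdhaf4 at 0.325. Its subunits Sdha, Sdhb, Sdhc and Sdhd were at 0.195, 0.46, -0.06 and 0.31. ATP synthase was at 0.02, turning to -0.03 after median centring. Of its 17 genes, 4 lay above the median of bright genes and 8 above that of the upper quartile. Within this pair, Ndufv1, the flavoprotein that binds NADH, read 9.86 and 10.44, a difference of 0.58. Uqcrc1 differed by 0.72, Cox6b2 by 0.83 and Atp5h by 0.31, the highest of the bright genes of complexes III, IV and V. The lowest were Sdhc at -0.06, Uqcrb at 0.01, Cox7a2 at -0.18 and Atp5g2 at -0.41. In this comparison 28 of 41 members with several bright probe sets had all of them on the same side of 0, against 1317 of 2175 genes. 1 member passed 2-fold, Sdhaf1, and it was higher; 11.4% of all genes within the limit passed, 6.18% higher and 5.2% lower.

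Among the arrays labelled Ets2-deficient, the tumor minus remodeling median was 0.32 against 0.02 in bright genes and -0.04 in the upper quartile, with 76 and 80 of 87 members above. This comparison shares the tumor Ets2-deficient array with the tumor Ets2 comparison, so they are not separate evidence. The medians were 0.39, 0.21, 0.53, 0.24 and 0.27 for complexes I to V. Median centring moved the members to -0.0025 and the bright genes to -0.30, which leaves the gap of 0.30 as it was. Ndufs8 at 0.87, Sdhb at 0.70, Uqcr11 at 0.76, Cox6b2 at 0.91 and Atp5g1 at 0.77 were the highest bright genes of their complexes. The lowest were Sdha at 0.07, Uqcrb at -0.19, Cox6a2 at -0.31 and Atp5g2 at -0.18, beside Ndufs5. Ndufaf7 passed 2-fold higher and Ndufs5 lower, and 9.22% of all genes within the limit passed, 7.61% higher and 1.61% lower.

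Ndufs5, an accessory subunit of the membrane arm of complex I, read 8.86, 9.12, 8.57 and 5.91. The tumor Ets2-deficient array lay apart, below its own median, and the difference of -2.66 in the tumor comparison was the lowest of all 12393 genes; against the remodeling Ets2-deficient array it was -3.21. The other probe set for Ndufs5, which also names its pseudogene Ndufs5-ps and so is outside the rule, read 9.84, 9.95, 9.95 and 10.09, a tumor difference of 0.14. The 2 probe sets therefore do not share a direction, and the low value was read by 1 of them. Ndufaf7, a methyltransferase needed to assemble complex I, read 6.46, 5.45, 6.73 and 6.78. Only the remodeling Ets2-deficient array was below its median, with a difference of -1.02 there that fell under 2-fold after each of the 3 other scalings. Sdhaf1, an assembly factor for the iron-sulfur subunit of complex II, read 7.78, 8.11, 8.93 and 8.66. Both tumor arrays lay above both remodeling arrays, by 1.15 between the Ets2-expressing arrays and 0.55 between the Ets2-deficient ones.

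**Figure D4:**
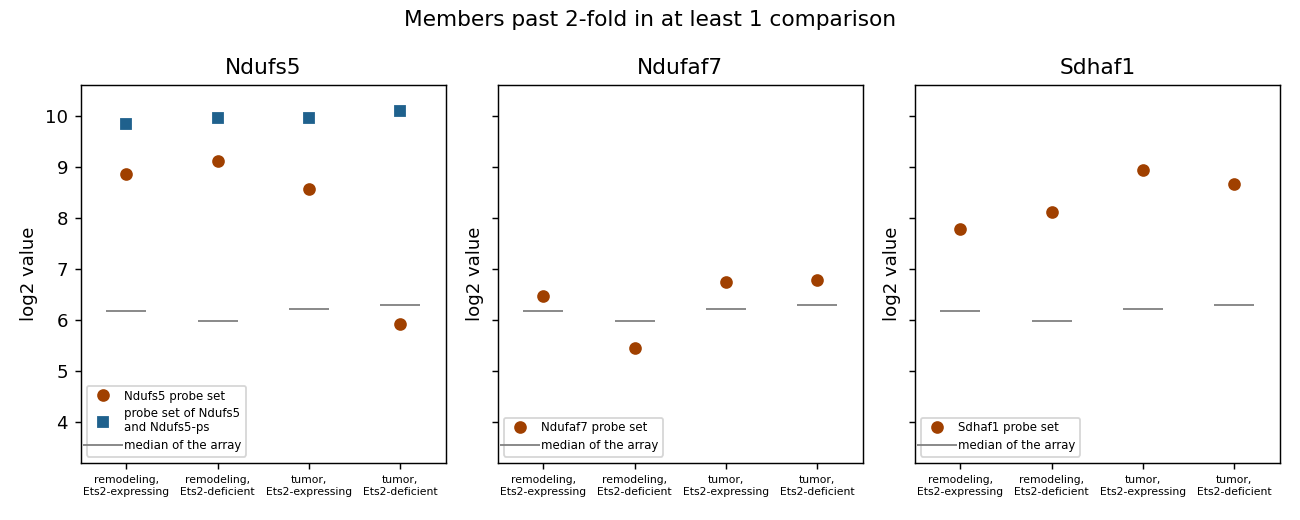
Log2 value on each array of the 3 members past 2-fold in a comparison (circles), of the probe set naming both Ndufs5 and Ndufs5-ps (squares), and the median of each array (grey dashes). Ndufs5 drops to 5.91 on the tumor Ets2-deficient array while the shared probe set stays between 9.84 and 10.09.

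Promoters are shown for these 3 genes and for Atp5g1 and Atp5md, the ATP synthase genes with the widest tumor difference. Ets2 belongs to the family that binds a GGAA core, and the ETS proteins and NRF1 are known regulators of respiratory chain genes. The RefSeq table, on build GRCm38.p6, held promoters of 73 members (78 promoters). In 300 bases, 250 before to 50 after each start, 2 motifs were searched on both strands: CCGGAAG as an ETS core, and GCGC, any 2 bases and GCGC again as an NRF1 core. The ETS core was in 20 of 78 member promoters (25.6%), 8.86% of all 32851 promoters and 18.9% of those of bright genes. The NRF1 core was also in 20 of 78 (25.6%), against 6.23% and 14.2%. By complex, the ETS core was in 5 of 38, 4 of 6, 2 of 5, 3 of 11 and 6 of 18 promoters of complexes I to V. A match is a description of letters and not a binding site.

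The windows below run 5-prime to 3-prime on the gene's strand, from 150 bases before to 30 after the start, with a motif in capitals. Ndufs5 (chr4:123718157-123718336, minus strand) held the NRF1 core. Sdhaf1 (chr7:30322346-30322525, minus strand) and Atp5md (chr19:47090618-47090797, minus strand) held the ETS core on the opposite strand, close to the start. Ndufaf7 (chr17:78936985-78937164, plus strand) and Atp5g1 (chr11:96075602-96075781, minus strand) held neither in the 300 bases. The promoters shown therefore included some with and some without these letters. Sdhaf1 is among them for its tumor minus remodeling difference, and its Ets2 differences were -0.27 in tumor and 0.33 in remodeling.
Ndufs5: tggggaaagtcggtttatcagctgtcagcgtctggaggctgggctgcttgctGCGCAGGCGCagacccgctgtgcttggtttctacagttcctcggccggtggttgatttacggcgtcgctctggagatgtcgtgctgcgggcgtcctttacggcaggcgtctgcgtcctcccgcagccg
Ndufaf7: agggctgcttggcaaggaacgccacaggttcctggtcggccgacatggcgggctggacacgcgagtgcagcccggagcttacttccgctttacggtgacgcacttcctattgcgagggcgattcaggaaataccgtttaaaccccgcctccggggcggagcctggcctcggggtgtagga
Sdhaf1: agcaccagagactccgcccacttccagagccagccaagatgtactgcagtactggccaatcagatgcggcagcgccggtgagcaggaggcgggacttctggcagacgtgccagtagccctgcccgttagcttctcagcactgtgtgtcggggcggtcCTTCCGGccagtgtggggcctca
Atp5g1: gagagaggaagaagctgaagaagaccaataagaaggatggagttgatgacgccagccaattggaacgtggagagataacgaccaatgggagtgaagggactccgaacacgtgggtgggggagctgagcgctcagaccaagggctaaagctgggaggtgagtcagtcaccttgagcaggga
Atp5md: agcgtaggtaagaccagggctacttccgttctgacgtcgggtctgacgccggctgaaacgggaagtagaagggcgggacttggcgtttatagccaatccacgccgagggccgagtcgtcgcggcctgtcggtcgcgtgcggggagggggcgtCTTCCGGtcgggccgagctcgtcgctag

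Other genes of the pathway were read from 6 lists, 69 genes in all. Their median in the tumor Ets2 comparison was 0.21, with 0 past 2-fold where 2.99% of all genes passed. Assembly factors of complexes I and V, listed with the ATP synthase inhibitor Atpif1 (7 genes in all), had a median of 0.42. They ran from Timmdc1 at 0.79 to Ecsit at -0.18, with Atpif1 at 0.67. Of the 7, 5 lay at or above the median of the tumor Ets2-expressing array and 4 at or above that of the tumor Ets2-deficient array. Ubiquinone synthesis and electron carriers (15 genes) had a median of 0.31, from Coq9, needed to make ubiquinone, at 0.75 to Etfb, of the electron transfer flavoprotein, at -0.59. Factors for complexes III and IV (13 genes) had a median of 0.28, from the copper chaperone Sco2 at 0.67 to Ttc19 at -0.69.

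The tricarboxylic acid cycle, which feeds the chain with NADH and succinate, had a median of 0.24 over 14 genes. Its extremes were Suclg2 at 0.76 and Sucla2 at -0.41, the GTP-forming and ATP-forming beta subunits of succinyl-CoA ligase. A list of 8 genes of nucleotide and phosphate carriers, uncoupling proteins and outer-membrane channels (Vdac) was at 0.17. Regulators of mitochondrial gene expression (12 genes) were at -0.07, from Nrf1 at 0.45 to the coactivator Ppargc1a at -0.39. On the tumor arrays, Ets2-expressing then Ets2-deficient, Nrf1 read 5.04 and 5.49 and Ppargc1a 4.89 and 4.51. These values lie below the array medians of 6.22 and 6.30. In the remodeling comparison the 69 genes had a median of 0.07 and 0 passed 2-fold, against 6.48% of all genes. Between the Ets2-expressing arrays 1 passed, Nrf1, lower in tumor by a difference of -1.34 on levels of 6.38, 5.95, 5.04 and 5.49, where 11.4% of all genes passed. Between the Ets2-deficient arrays 1 passed, Coq7, another enzyme of ubiquinone synthesis, at 1.19, where 9.22% of all genes passed.

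Some other families of bright genes, chosen after the members' values were seen, show how far the pattern reaches. Mitochondrial ribosomal proteins (74 genes) had medians of 0.32 in the tumor and 0.18 in the remodeling Ets2 comparison, and 79.7% were highest on the tumor Ets2-deficient array. Proteasome subunits (38 genes) had 0.20 and 0.04, with 65.8% highest there. Cytosolic ribosomal proteins (46 genes) had 0.06 and 0.09, with 54.3%. The higher level on that array was thus also seen in families outside the respiratory chain.

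The epithelial markers were higher on the same arrays: their median difference was 0.89 in the tumor Ets2 comparison, with 10 of 11 above 0, and 4.08 between the Ets2-deficient arrays. Csn2, the milk protein beta-casein, read 4.64, 3.68, 7.54 and 11.24, and the keratin Krt8 read 5.83, 5.41, 10.50 and 11.39. In the tumor Ets2 comparison all 4 neutrophil markers were also higher (median 1.27), led by S100a8 at 1.49 and S100a9 at 1.48, as were all 5 cycling markers (median 0.50), with Cdc20 at 1.28 and Ccnb2 at 0.96. Of the 9 macrophage markers 8 were lower (median -0.12), from C1qa at -0.35 and Adgre1 at -0.34 to Cd68, the exception, at 0.23. Between the Ets2-expressing arrays, tumor minus remodeling, the medians were 2.63 for epithelial, -1.23 for fibroblast, -1.23 for mast cell and -1.21 for neutrophil markers. Between the Ets2-deficient arrays they were 0.59, 0.94 and 0.92 for fibroblast, mast cell and neutrophil markers. The part of RNA from these cells in the members' values was not tested.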

How the data were processed

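The deposited values are log2 expression values from 4 mouse arrays, 1 per group; GCOS and RMA are named in the submitters' processing notes, and which step each made is not given in the sources used here. Per the labels, RNA of sorted cells (about 10 ng) was amplified before labelling, which can change measured levels and favours the 3-prime end. Values were used as deposited. The array annotation names the gene of each probe set; 691 probe sets with several genes were left out of gene counts. A gene was read from its brightest probe set. A member is past 2-fold where the log2 difference is at least 1 and the brighter array is at or above its median. Named members were those past 2-fold, the highest and lowest bright gene per comparison and complex, isoforms and Ndufs5; others named were chosen after their values were seen. The members and lists were chosen with earlier results of these data known. Alternatives were 3 other scalings, other choices of probe set and member, and other limits; leaving out _s_at and _x_at probe sets, whose probes can match several transcripts, was chosen after seeing the data. The code was tested on simulated data. Tools were Python 3.11.15, numpy 2.4.6, pandas 2.3.3 and matplotlib 3.10.9.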

Additional observations from a re-analysis of the deposited data

Results flagged for a closer look

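The Ets2 difference had opposite signs in tumor and remodeling macrophages for 24 of 87 members, and the tumor minus remodeling difference for 19 of 87 between the Ets2 labels. Of the 6197 bright genes, 1258 had an Ets2 difference above 0 in tumor and below 0 in remodeling, and 1509 the reverse. For tumor minus remodeling, 1046 were above 0 between the Ets2-expressing and below 0 between the Ets2-deficient arrays, and 837 the reverse. Opposite signs were thus a smaller share of members than of bright genes in each contrast. Listed here are the members with opposite signs at least 1 log2 apart and at or above the median on at least 1 array. They number 3 for the first contrast and 1 for the second. The share of all genes past these same limits was not taken, so the counts cannot be set against it. Each pair is 1 array against 1 array and the difference between pairs was not tested. Ndufs5 differed by -2.66 in tumor and 0.26 in remodeling macrophages. Ndufaf7 differed by 0.044 in tumor and -1.02 in remodeling. Cox7a1 differed by 0.58 in tumor and -0.61 in remodeling, and its tumor minus remodeling difference was -0.33 between the Ets2-expressing arrays and 0.86 between the Ets2-deficient arrays, on a probe set near the array median.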

How the results depend on the processing

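With 1 array per group, no error between animals can be given and leaving out a replicate was not possible. No paired analysis was possible because each group holds 1 array. No direction of a called value turned, and the gap between members and bright genes was 0.19, 0.03, 0.11 and 0.32 (quantile normalization) against 0.19, 0.04, 0.07 and 0.30 as deposited, in the order tumor Ets2, remodeling Ets2, tumor minus remodeling for Ets2-expressing and for Ets2-deficient. For medians over members or complexes and counts of members, 180 alternative values stayed within the pooled spread between probe sets (medians) or within 1.5 times (counts), and 40 did not; for single genes 115 did and 57 did not.

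Between the Ets2-deficient arrays, tumor minus remodeling, the median of all genes was 0.01 as deposited, -0.31 after centring each array on its median and -0.21 after centring on hybridization controls. In that comparison the members' median was -0.0025 after median centring and 0.093 after control centring; complexes I to V were 0.070, -0.11, 0.21, -0.078 and -0.054 after the first, and 0.16, -0.011, 0.31, 0.018 and 0.042 after the second. In the remodeling Ets2 comparison the members' median was 0.29 and 0.30; complexes I to V were 0.35, 0.42, 0.29, 0.25 and 0.22, and 0.36, 0.43, 0.29, 0.26 and 0.23; complex II was 0.08 over all probe sets. After median centring 43 members lay above 0 between the Ets2-deficient arrays and 37 were highest on the tumor Ets2-deficient array. The share of bright genes after centring was not taken for these counts.

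Members past the limit in the tumor Ets2 comparison numbered 2 with no brightness limit, 0 with the limit at the upper quartile and 11 at 1.5-fold, where 2.69%, 1.57% and 15.3% of all genes passed. In the remodeling Ets2 comparison they numbered 0 with the quartile limit and 4 at 1.5-fold, where 3.9% and 16.3% of all genes passed. There they also numbered 0 under median centring, quantile normalization, control centring and without _s_at and _x_at probe sets. The share of all genes under these last settings was not taken, so those counts cannot be set against it. Between tumor and remodeling at 1.5-fold they numbered 3 for Ets2-expressing and 14 for Ets2-deficient (29.8% and 23.7% of all genes). For Ets2-deficient at 2-fold they numbered 1 with the quartile limit, where 5.28% of all genes passed. Without _s_at and _x_at probe sets they also numbered 1, and the share of all genes was not taken.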
